A study of Mus musculus with 2 samples.

Results

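Conventional CD4 T cells, the helper T cells of the islet preparations that carried few or no transcripts of activation and regulatory genes, came to 155 cells of the saline and 1 of the CDS library, or 156 of the 18006 kept cells. A cell was counted when its barcode held at least 500 genes and 1000 UMIs, and its mitochondrially encoded genes gave at most 20% of UMIs. A UMI is a unique molecular identifier, which stands for 1 captured RNA molecule. The cell also had at least 2 UMIs of Cd3d, Cd3e, Cd3g, Trac and Trbc2 together, at most 1 of the B cell genes Cd79a, Cd79b and Ms4a1, and less than 25% of its UMIs from the insulin genes. It had at least 1 Cd4 UMI, none of Cd8a or Cd8b1, and at most 1 UMI of Ctla4, Tnfrsf4 and Foxp3 together. The cells were thus chosen by the UMIs of these genes, whose values describe the choice and are not results. The gates use fixed numbers of UMIs, and a deep cell can pass or miss them more easily than a shallow one.

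CD4 T cells read peptides shown on MHC class II molecules through the T cell receptor, and the CD4 protein binds the same MHC molecule and brings the kinase Lck to the receptor. Before they meet their antigen they are quiescent and recirculate between blood and lymphoid organs, guided by homing receptors such as CCR7 and S1PR1, while LEF1 and TCF1 keep their program and IL-7 keeps them alive. After antigen contact they divide, switch to glycolysis and can turn into subsets that secrete different cytokines. In the pancreas they are best known as drivers of the immune attack on beta cells in autoimmune diabetes.

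Both libraries were made from mice labelled DIO that received saline or 10 mg/kg of an agent labelled CDS for 2 weeks, with 1 library per group. The title of the series speaks of an alpha2A-adrenergic receptor antagonist that acts in the periphery, and nothing in the labels equates CDS with it. Islets were freed by collagenase given by way of the pancreatic duct and were then picked whole. The labels give neither strain, age nor the number of mice pooled, and name no cell sort, and islet b cell stands as the cell type. The cells described here were taken as T cells by their own RNA and not by that label.

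Each group being 1 library, differences have no replicate check and carry no p-value, since cells of 1 library do not count as replicates. All 95% intervals cover counting error only. There were 124343325 UMIs in the saline and 141191447 in the CDS library. Of the kept barcodes, 5.30% and 3.99% were called doublets. They stayed in, and ratios that rest on them are given with and without them. Levels in CPM include them unless stated otherwise. The 2 libraries shared 25 barcodes, and none of them belonged to a CD4 T cell counted here.

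The saline cells held between 1056 and 16714 UMIs, with a median of 2157 UMIs and 1204 genes, and 431167 UMIs in all. The 5 deepest held 16.1% of them. Doublet calls fell on 7 of the 155, and these 7 held 19.9% of the UMIs, with a median of 12496 against 2131 in the others. Insulin transcripts made up 1.22% to 21.6% of a cell's UMIs, with a median of 4.37%. Beta cells, taken here as cells with at least 25% insulin UMIs and no UMI of the T cell gate, were far deeper at a median of 16174.

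The cells made up 1.34% of kept saline cells (exact Clopper-Pearson 95% interval 1.14 to 1.56) and 0.0156% of kept CDS cells (0.000395 to 0.0868). All T cells were likewise fewer in the CDS library, at 1515 against 21, and so were B cells, at 1011 against 38. Within T cells the CD4 share was 10.2% (8.75 to 11.9) in saline, and in CDS it was 1 of 21 cells (4.76%, 0.120 to 23.8), and these intervals overlap. The share of CD4 T cells among T cells could therefore not be told apart between the libraries at this number of cells. A further 84 saline and 3 CDS cells passed all gates except the one on Ctla4, Tnfrsf4 and Foxp3. With that gate kept, 361 and 3 were CD8 T cells, and another 641 and 7 T cells carried neither Cd4 nor Cd8 UMIs. T cells past that gate without a Cd4 UMI were put in none of these classes. The count of 155 is thus one of cells with a captured Cd4 transcript. It is lower than the number of CD4 T cells by an unknown amount. Depth differed between the libraries, with a median of 16174 UMIs in saline and 28865 in CDS beta cells, and with the gates applied after every cell was thinned to 1000 UMIs there were 66 saline members (0.569%) and 1 CDS member (0.0156%).

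Most members sat close to the gates. A single Cd4 UMI was found in 129 of the 155 cells, 2 in 21, 3 in 3 and 4 or more in 2. Next to them lay the 641 otherwise matching T cells with none. Ctla4, Tnfrsf4 and Foxp3 were at 0 in 124 members and gave 1 UMI in 31, of which 26 came from Ctla4, 5 from Tnfrsf4 and none from Foxp3. Just outside that gate lay 20 cells with 2 and 5 cells with 3 such UMIs. At the T cell receptor gate 9 members had 2 UMIs and 19 had 3, while 14 otherwise matching barcodes had 1. The insulin gate left out 9 otherwise matching barcodes, and 3 members had an insulin share of 20% or more.

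The label was checked on Lef1, Tcf7 and Il7r, markers of the label that the gates did not use. Levels here are CPM, the share of a class's UMIs that a gene took, scaled to a fixed total, with TMM factors over the lymphocyte classes of the saline library, summed over cells. Lef1 (chr3:131110471-131224356 in mm10, plus strand) encodes a transcription factor of resting T cells. It stood at 979 CPM (889 to 1074), with a UMI in 85.2% of members and in 1.93% of beta cells. Tcf7, which encodes TCF1, stood at 528 CPM (463 to 600) in 72.9% of members and 1.07% of beta cells. Il7r, the receptor chain for the survival cytokine IL-7, stood at 755 CPM (676 to 839) in 73.5% and 2.34%. Without called doublets Lef1 stood at 1168, Tcf7 at 619 and Il7r at 881 CPM in members. Beta cells, whose median depth was 16174 UMIs, may understate free RNA in the members, since in plain CPM the acinar enzyme list summed to 849 in members and 258 in beta cells. B cells, at a median of 1932 UMIs against 2157 in the members, are closer in depth, and Lef1 was seen in 3.86% of them, Tcf7 in 0.890% and Il7r in 8.41%. After each cell was thinned to 1000 UMIs, Lef1 was seen in 56.1% of members, Tcf7 in 49.7% and Il7r in 53.5%, against 1.29%, 0.495% and 5.44% of B cells and at most 0.182% of beta cells for each. These markers were not particular to cells with Cd4 UMIs, since Lef1 was seen in 85.9% of CD8 T cells and in 74.4% of T cells without Cd4 or Cd8 UMIs. Cd4 itself (chr6:124864692-124888221, minus strand) had 2 UMIs in 1011 B cells and 18 in 3840 beta cells, and myeloid cells were not read.

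**Figure D1:**
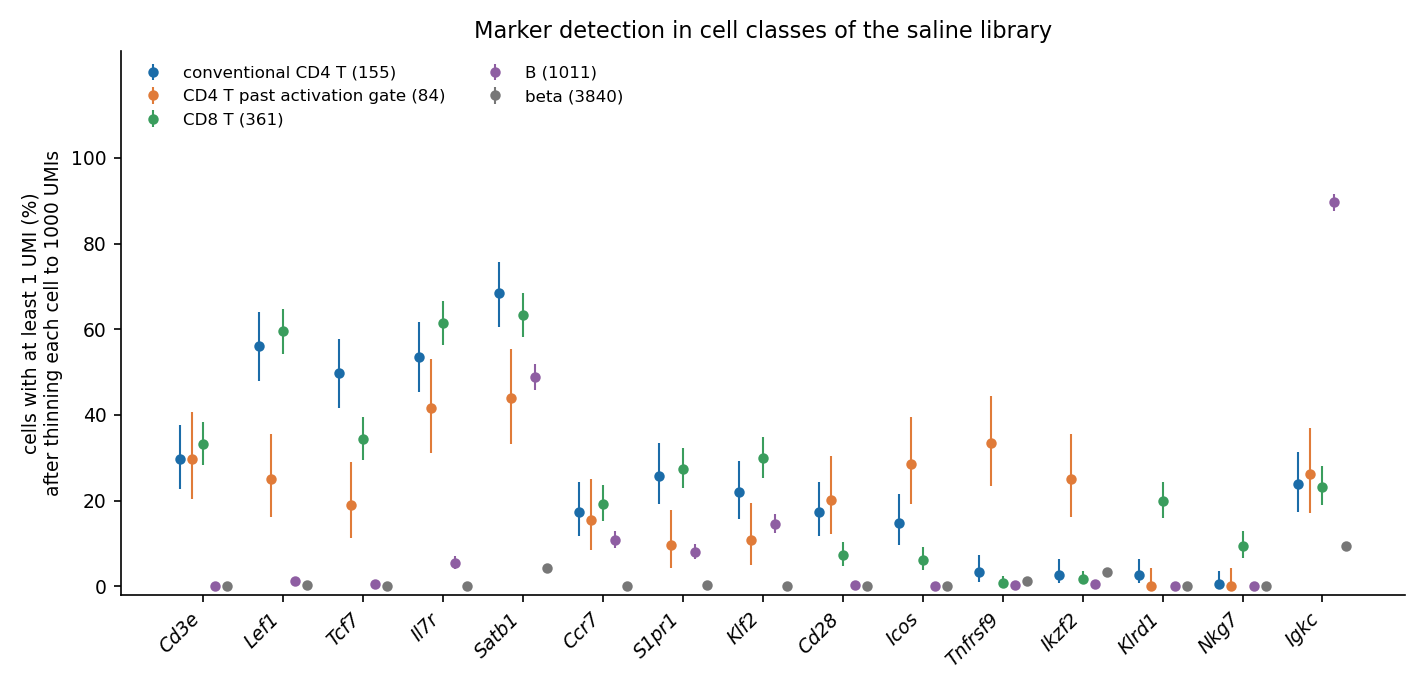
Share of cells with at least 1 UMI of each gene (vertical axis, %) after each cell was thinned to 1000 UMIs, for 5 cell classes of the saline library. Points are shares and bars are exact Clopper-Pearson 95% intervals that cover counting error only; Tcf7 is seen in 49.7% of conventional CD4 T cells and in 19.0% of those past the activation gate, and S1pr1 in 25.8% and 9.52%.

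The genes of naive and recirculating T cells were broadly present. Satb1, a chromatin organiser of T cells, stood at 1351 CPM in 89.0% of members, and Bach2, a repressor of effector genes, at 948 CPM in 81.3%. Foxp1, which keeps naive T cells quiescent, was at 888 CPM, against 225 CPM in beta cells. B cells held Foxp1 at 1216 CPM, Bach2 at 777 CPM and Satb1 at 538 CPM, so these genes were not particular to T cells. The homing genes were sparser. Ccr7, the receptor for lymph node chemokines, was seen in 31.0% of members at 215 CPM. S1pr1, the receptor for exit from lymphoid organs, was seen in 45.2% at 215 CPM, and its activator Klf2 in 40.0% at 231 CPM. Tcf7 was seen in 101 of 132 cells with Lef1 (76.5%, 68.4 to 83.5) and in 12 of 23 without it (52.2%, 30.6 to 73.2), and these intervals overlap.

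Capture of receptor signalling genes varied from gene to gene. The adaptor gene Skap1 stood at 823 CPM in 81.3% of members, although Skap1 also stood at 150 CPM in beta cells. Ptprc, which encodes CD45, was at 810 CPM in 78.1% and Lck at 184 CPM in 40.6%. Other genes of the list were sparser, with Lat seen in 31.6% and Zap70 in 21.3%. The gamma delta receptor genes Trdc, Tcrg-C1 and Tcrg-C2 had no UMI, and a count of 0 in 155 cells allows a UMI, though not expression, in up to 1.94% of cells (3 counts) or 6.66 CPM. A beta chain variable gene was captured in 26 members (16.8%), each with a single one, and these 26 cells held 13 different genes. Trbv1 was the most frequent, in 6 cells. An alpha chain variable gene was captured in 22 members (14.2%), spread over 17 genes. The variable genes are similar in sequence to each other, so the gene assigned to a read is uncertain, as is the split between Trbc1 and the gate gene Trbc2.

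Several genes of helper subsets were rare or absent, while others were seen more often. Tbx21 of Th1 cells had 1 UMI, while Ifng, Il5, Il13, Il17a, Il17f, Il21 and Foxp3 had none. Il4 had 4 UMIs and Il22 6 UMIs, each within 1 cell. Gata3, which is needed in all CD4 T cells and rises in Th2 cells, had 14 UMIs in 8.39% of members. Stat4, the IL-12 signal transducer, stood at 333 CPM in 57.4%, but at 270 CPM in B cells, and Slamf6, a receptor of resting and follicular T cells, at 204 CPM in 40.6%. Cd44, which is kept high after antigen contact, was seen in 4.52% of members and S100a4 in 1.29%. Other genes of the memory and activation list were seen more often, Icos in 23.2%, Cd69 in 20.6% and Tnfrsf18 in 20.6%. Mki67 and Top2a of dividing cells had 2 and 3 UMIs.

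3 genes of helper T cells had too few UMIs for a ratio but differed in detection from CD8 T cells. Cd40lg, the ligand with which helper T cells activate B cells, had 11 UMIs in 10 members (6.45%) and none in 361 CD8 T cells, which allows a UMI in up to 0.831% of them (3 counts) and sets no limit on cells that express it. Izumo1r, which encodes folate receptor 4, was seen in 12.3% of members and 0.831% of CD8 T cells. Trat1, an adaptor that holds the receptor complex at the surface, was seen in 12.9% and 1.94%. Median depth was 2157 UMIs in the CD4 and 2409 in the CD8 T cells. These genes were chosen after their values were seen.

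The receptor named in the series title was hardly seen in these cells. Adra2a (chr19:54044151-54048982, plus strand), which encodes the alpha2A-adrenergic receptor, had 4 UMIs in 4 of the 155 cells, or 8.88 CPM (2.42 to 22.7). In beta cells Adra2a stood at 32.1 CPM with a UMI in 37.5% of cells at their higher depth. After thinning it was seen in 0.645% of members and 3.23% of beta cells. The level in members was thus not above that of beta cells, and the intervals of CD8 T cells (5.22 CPM) and B cells (5.43 CPM) overlapped it, so expression by the T cells could not be separated from free RNA at this depth. Adra1a, Adra1b, Adra1d, Adra2b, Adra2c, Adrb1 and Adrb3 had no UMI. Further down the cyclic AMP pathway, Gnas, the stimulatory G protein, stood at 703 CPM and the phosphodiesterase Pde3b at 484 CPM. Both levels include the called doublets, and the part of free RNA in them was not tested. Gnas was called higher than in cells past the gate on Ctla4, Tnfrsf4 and Foxp3, but not without called doublets.

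Markers of other cells were low but not absent. Summed over 1000 UMIs of a cell, the myeloid list gave 0 to 5 UMIs, the B cell list 0 to 9 and the endothelial list 0 to 4. Igkc, an antibody light chain, was seen in 41.9% of members at 215 CPM and in beta cells at 98.5 CPM, while the defining B cell markers Cd79a, Cd79b and Ms4a1, which are gate genes, were at 0. Of the 14 myeloid markers, Cd68, C1qc, Itgam, Adgre1, Itgax and Cd14 were at 0, as was Ncr1 of natural killer cells. The rest of the myeloid list gave 148 UMIs, with a UMI in 27.7% of thinned members. In plain CPM the list stood at 343 in members, 386 in beta cells and 617 in B cells. Pecam1 stood at 215 CPM in 40.6% of members, whereas the endothelial markers Cdh5, Kdr and Plvap had 1 UMI each and Flt1 none.

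Compared with CD8 T cells of the same library, the CD4 T cells had levels of Lef1, Tcf7, Satb1 and Ccr7 within 1.5 times of each other, lower levels of cytotoxic genes and Bcl2, and higher levels of Cd28, Runx1 and Hif1a. CD8 T cells passed the same gates, also the one on Ctla4, Tnfrsf4 and Foxp3, but had Cd8a or Cd8b1 UMIs and no Cd4 UMI. They kill infected cells rather than help other cells. A gene was tested with at least 50 UMIs over both classes and called at a ratio of at least 1.5 either way with a 95% interval that excludes 1. Of 5385 genes tested 514 were called, which is 9.55%, with 174 higher (3.23%) and 340 lower (6.31%) in CD4 T cells and a median log2 ratio of −0.07. The split of calls moved with the scaling, from 33.9% higher here to 46.2% with plain CPM and 50.7% when hormone, acinar and mitochondrially encoded genes were left out of the CPM total, so the direction of small differences is uncertain.

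Of the naive and recirculation list, 18 of 20 genes were measured, none was called higher and 3 were called lower, among them Dapl1 and Txk, with a median log2 ratio of −0.05. The ratio of Lef1 was 1.03 (0.92 to 1.15) and that of Ccr7 1.05 (0.82 to 1.34). Txk, a kinase of the receptor pathway, stood at 195 against 402 CPM, a ratio of 0.49 (0.38 to 0.61). Of the receptor signalling list, 20 genes were measured, with Cd28 called higher and Themis and Txk lower. Cd28, the costimulatory receptor that CD4 T cells depend on, stood at 169 against 80.1 CPM, a ratio of 2.11 (1.53 to 2.88). Themis, a regulator of receptor signals in thymic selection, had a ratio of 0.58 (0.46 to 0.71). Bcl2, which blocks cell death, stood at 193 against 426 CPM, a ratio of 0.45 (0.36 to 0.57). It was the only gene called among 19 measured of the quiescence and survival list. Of 11 measured memory and activation genes only Cd69 was called, higher in CD4 T cells at a log2 ratio of 0.63.

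The cytotoxic list had 5 measured genes of 16, and all 5 were called lower in CD4 T cells. They passed the 50 UMI limit through the CD8 T cells, so this count describes where the list is expressed and supports nothing. After thinning it was 2, a setting in which 1847 of the 5385 genes were tested. Klrd1, the CD94 chain of killer cell receptors, stood at 8.88 against 221 CPM, a ratio of 0.04 (0.01 to 0.10), and was seen in 4 CD4 T cells and in 41.6% of CD8 T cells. Nkg7, a protein of cytotoxic granules, had a ratio of 0.09 and the protease gene Gzmb one of 0.07. Ccl5, a chemokine of effector cells, had a ratio of 0.40 (0.27 to 0.58), and a single CD4 T cell held at least 50% of its UMIs there.

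Runx1 and Hif1a were among the 10 highest ratios of genes with at least 50 CPM in a class and 100 UMIs over both. Runx1, a transcription factor of T cell development, stood at 342 CPM in CD4 against 109 CPM in CD8 T cells. Its ratio was 3.14 (2.46 to 4.01), or 3.34 without called doublets, and it was seen in 50.3% against 21.3% of cells. Hif1a, the oxygen-sensitive transcription factor, stood at 408 against 138 CPM, a ratio of 2.97 (2.39 to 3.69), or 3.21 without called doublets. Both differences were spread over many cells, since 21 CD4 T cells were needed to hold 50% of the Runx1 UMIs and 24 for Hif1a. Also among the 10 highest were Nrip1, a nuclear receptor corepressor, at 2.34 (1.81 to 3.01), and Ifitm3, an antiviral membrane protein, at 2.87 (1.91 to 4.32). Krt8, an epithelial keratin, had a ratio of 2.87, but 2 CD4 T cells held 50% of its UMIs and without called doublets it was 1.53 (0.77 to 2.94), which ended the call.

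Among the 10 lowest ratios were Plac8 at 0.07 (0.02 to 0.16), Cd226, an adhesion receptor of killer cells, at 0.17 (0.08 to 0.32), and Fam241a, at 55.5 CPM against 685 CPM. The platelet and macrophage genes Pf4 and Apoe were also among them, at ratios of 0.09 and 0.16, but a single CD8 T cell held at least 50% of the UMIs of each. Without called doublets their ratios turned to 5.16 and 1.62. None of 10 measured MHC class I genes and none of 7 cell cycle genes was called, and of 17 measured cytokine receptor genes Il21r, Ifnar2 and Il18r1 were called lower, with a median log2 ratio of −0.37 against −0.07 for all genes. Of 5 measured myeloid markers 4 were called lower and of 5 hormone genes 2, while without called doublets none was, with 2 myeloid markers and 5 hormone genes measured. Il21r, the receptor for the cytokine of follicular helper cells, had a ratio of 0.59 (0.45 to 0.76). Gpr183, a receptor that guides cells to B cell follicles, was called higher at 2.04 (1.49 to 2.79). The G protein regulator genes Rgs10 and Rgs2 were called higher at 1.91 and 1.90, and Nfkbia, an inhibitor of NF-kappaB, at 1.93 (1.59 to 2.35).

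A pair of neighbouring genes split between the classes. Ly6c1 (chr15:75044018-75048830, minus strand) stood at 113 CPM in CD4 and 4.35 CPM in CD8 T cells, a ratio of 26.0 (10.4 to 83.5), from 51 UMIs in 31 CD4 T cells and 5 UMIs in 361 CD8 T cells. Ly6c2 (chr15:75108158-75111970, minus strand) stood at 8.88 against 294 CPM, a ratio of 0.03 (0.01 to 0.08). Both encode forms of the surface antigen Ly6C and both belong to the interferon list. Their sequences are near copies of each other, so reads could be assigned to either, and each ratio is uncertain on that ground. In B cells Ly6c2 stood at 608 CPM and Ly6c1 at 1.71 CPM.

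**Figure D2:**
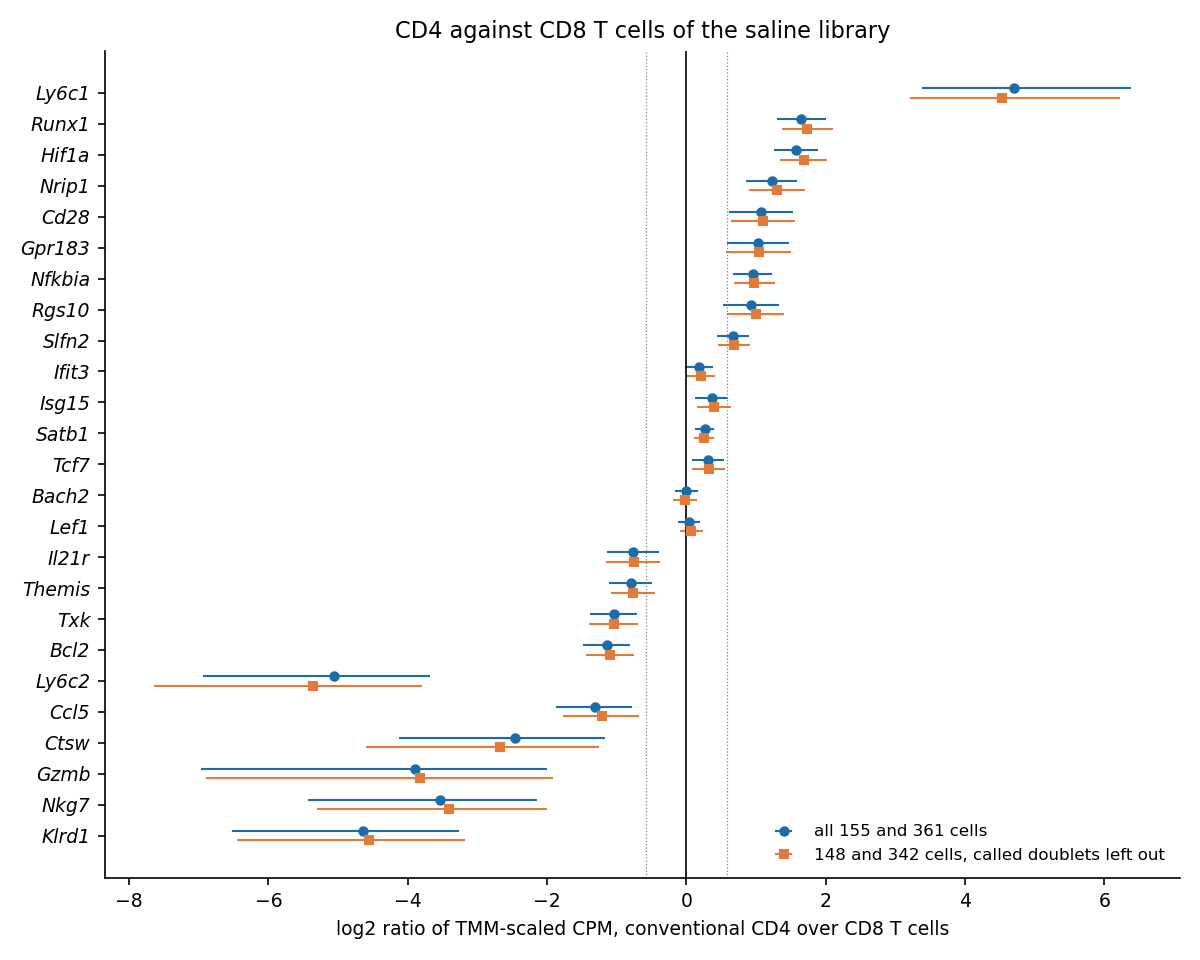
Log2 ratio of TMM-scaled CPM of conventional CD4 over CD8 T cells of the saline library (horizontal axis) for 25 named genes, with 95% intervals for counting error. Circles use all 155 and 361 cells and squares leave called doublets out (148 and 342 cells), dotted lines mark a ratio of 1.5 either way, and Ly6c1 and Ly6c2 lie at opposite ends.

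The cells that missed the activation gate give the other near neighbour. The 84 saline cells with at least 2 UMIs of Ctla4, Tnfrsf4 and Foxp3 were compared with the 155 members, with the 3 gate genes left out. The rule itself made this split, so the values describe what the gate separated and support nothing. Cells past the gate were also deeper, with a median of 2720 UMIs against 2157 and a highest value of 33044. Of 3275 genes tested 928 were called (28.3%), with 386 higher (11.8%) and 542 lower (16.5%) in the members, and the median log2 ratio was −0.03. Thinned to 1000 UMIs, 71.7% of the calls were higher in the members instead of 41.6%, a setting in which only 688 genes were tested.

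Resting genes were higher below the gate. Of 16 measured naive and recirculation genes 11 were called higher and none lower, also without called doublets, and 8 were higher after thinning. Lef1 stood at 979 against 268 CPM (ratio 3.65, 2.96 to 4.53), S1pr1 had a ratio of 3.60 (2.30 to 5.83), Klf2 one of 3.21 and Tcf7 one of 2.79 (2.16 to 3.65). Ccr7 differed by less than its interval at 0.95 (0.71 to 1.27). Of 19 quiescence and survival genes 7 were called higher and none lower, or 11 without called doublets. Pik3ip1, an inhibitor of PI3 kinase, had a ratio of 3.98 (2.32 to 7.20). Slc49a4, a solute carrier, was among the 10 highest at 5.62 (3.34 to 10.0), or 8.43 without called doublets. Ttr and Robo2 were among them too, at 4.87 and 4.03. A single cell held at least 50% of the Ttr UMIs, and without called doublets the ratio of Ttr was 1.33 (0.93 to 1.89) and that of Robo2 was 1.72.

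Activation genes were lower below the gate. Of 15 measured memory and activation genes 9 were called lower and none higher, and of 5 regulatory T cell genes all 5 were lower, having passed the limit mostly through the cells past the gate. After thinning, 4 memory and activation genes and 2 regulatory genes were lower. Tnfrsf9, the costimulatory receptor 4-1BB, stood at 44.4 against 438 CPM (ratio 0.10, 0.06 to 0.16). Ikzf2, which encodes Helios of regulatory T cells, had a ratio of 0.10 (0.05 to 0.17), although among the 26 members with at least 2 Cd4 UMIs its log2 ratio was 0.25. Il2ra, the high-affinity IL-2 receptor chain, had a ratio of 0.10 (0.03 to 0.23) and Pdcd1, which encodes PD-1, one of 0.15 (0.07 to 0.28). Icos, a costimulator of follicular helper cells, stood at 99.9 against 287 CPM (ratio 0.35, 0.24 to 0.49). All 9 measured cell cycle genes were lower, but only 1 was called after thinning, where fewer genes were tested. The log2 ratios of Top2a, H2afz and Hmgb2 were at most −1.66, −0.74 and −0.52 in all 13 settings. The cell cycle list had the same median of 1 UMI per 1000 on both sides, with a UMI in 63.2% of members and 63.1% of cells past the gate, whose highest cell held 19 against 7. The 5 deepest cells past the gate held 26.7% of that class's UMIs, and 2 cells held 50% of its Top2a UMIs. Of 11 glycolysis genes 8 were lower, and 3 after thinning, among them in the full data Ldha at 0.32 (0.26 to 0.40) and Gapdh at 0.46 (0.40 to 0.53). Of 7 heat shock genes 5 were lower, and 2 after thinning. Apoe was low in the members at a ratio of 0.09, which turned to 1.69 without called doublets.

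**Figure D3:**
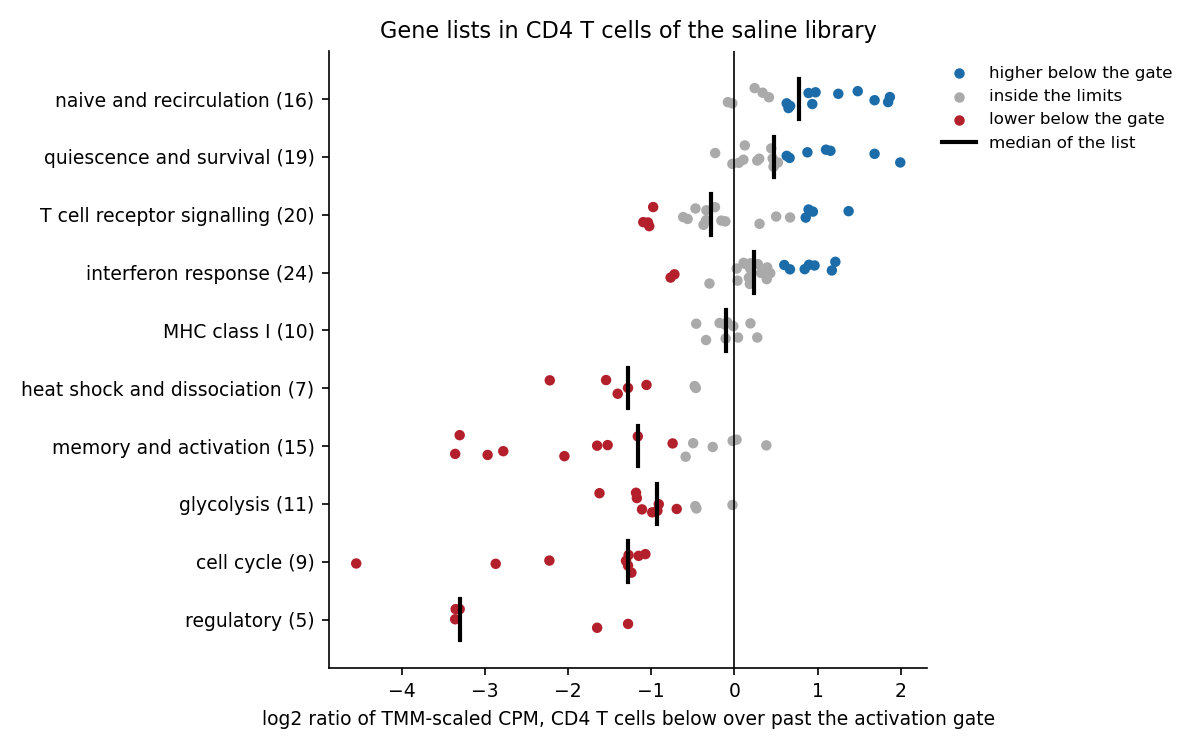
Log2 ratio of TMM-scaled CPM in CD4 T cells below over past the activation gate (horizontal axis) for the measured genes of 10 lists (vertical axis, number of genes in parentheses), in the saline library. Each point is a gene, coloured by whether it was called, and black bars are list medians; the naive list has 11 genes called higher and the cell cycle list 9 called lower, in a comparison where 28.3% of all genes were called.

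Transcripts induced by interferon were abundant in the members and varied widely from cell to cell. Interferons act through their receptors on genes that carry an interferon-stimulated response element, and the products block viral replication. Ifnar1 and Ifnar2, the receptor chains for type I interferon, stood at 77.7 and 51.0 CPM, and Ifngr1, for interferon gamma, at 568 CPM. Promoters of responding genes are shown because several genes of the list were seen together in the same members. The element was searched as GAAANNGAAA or, on the other strand, TTTCNNTTTC, in 300 bases from 250 before to 50 after each start site (RefSeq, GRCm38.p6). It was found in 9 of the 19 interferon list genes with a promoter in the table (47.4%), in 1 of 17 naive list genes (5.88%), in 1 of 8 MHC class I genes (12.5%) and in 1079 of all 27025 genes (3.99%). A match is a description of letters and not a measured binding site. Positions −180 to −31 from the start site of 3 interferon targets among the 9 read 5′ to 3′ on the strand of the gene, with matches in capitals.

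Isg15, chr4:156200849-156200998, minus strand: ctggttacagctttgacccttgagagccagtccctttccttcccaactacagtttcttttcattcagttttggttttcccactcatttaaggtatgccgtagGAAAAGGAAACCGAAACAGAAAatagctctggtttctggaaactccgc

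Ifit1, chr19:34640709-34640858, plus strand: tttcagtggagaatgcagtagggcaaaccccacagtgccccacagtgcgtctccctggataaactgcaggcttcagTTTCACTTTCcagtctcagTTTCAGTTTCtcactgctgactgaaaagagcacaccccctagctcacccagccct

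Ifit3, chr19:34583349-34583498, plus strand: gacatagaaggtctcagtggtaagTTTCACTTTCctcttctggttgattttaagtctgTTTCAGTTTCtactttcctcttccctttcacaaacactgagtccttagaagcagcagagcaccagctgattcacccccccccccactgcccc

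Isg15 held 3 matches that overlap each other, and Ifit1 and Ifit3 held 2 each. Isg15, a ubiquitin-like protein that is attached to other proteins, stood at 482 CPM and was seen in 56.1% of members. Ifit1, which binds foreign RNA ends, stood at 324 CPM in 47.7%, and its neighbour Ifit3 at 637 CPM in 65.8%. In beta cells these genes were seen in 3.26%, 12.3% and 4.45% of cells in spite of their depth. Irf7, the transcription factor that amplifies the response, stood at 242 CPM in 45.2% of members, and Usp18, which removes Isg15 and limits signalling, at 173 CPM in 34.8%. Ifi27l2a was at 1136 CPM in 78.1%.

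The same cells tended to carry several of these transcripts. Ifit3 was seen in 78 of 87 members with an Isg15 UMI (89.7%, 81.3 to 95.2) and in 24 of 68 without one (35.3%, 24.1 to 47.8). The median depth of these groups was 2251 and 2080 UMIs. Ifit3 was likewise seen in 64 of 74 members with Ifit1 (86.5%, 76.5 to 93.3) and in 38 of 81 without (46.9%, 35.7 to 58.3). Lef1 did not follow this pattern, with 81.6% of Isg15 cells and 89.7% of the others.

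Summed over the 25 genes of the interferon list and thinned to 1000 UMIs, members held from 0 to 32 UMIs, with a median of 10 and quartiles of 5 and 14. At most 3 UMIs were found in 33 members (21.3%, 15.1 to 28.6) and at least 10 in 79. The variance was 4.69 times the mean, where a Poisson count with the same mean in every cell would give 1. Without called doublets the median was again 10, with 29 and 78 of 148 cells in these ranges. Both limits were chosen after the values were seen, and 15 members lay at 3 or 4 and 20 at 9 or 10. The median was 10 in CD4 T cells past the activation gate, 8 in CD8 T cells, 9 in T cells without Cd4 or Cd8 UMIs, 6 in B cells and 0 in beta cells. These transcripts were thus found in every lymphocyte class of the saline library that was read, and not in CD4 T cells alone.

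Against CD8 T cells, 25 interferon list genes were measured, with Ly6c1 and Slfn2 called higher and Ly6c2 lower (3.23% and 6.31% of all genes), and the median log2 ratio was 0.02. Isg15 had a ratio of 1.29 (1.09 to 1.52) and Ifit3 one of 1.13 (0.98 to 1.31), both under the limit of 1.5. Against the cells past the activation gate, 7 of 24 were higher and 2 lower (11.8% and 16.5% of all genes), with Ifit3 at 1.86 (1.52 to 2.29) and Ifi206 at 1.95 (1.52 to 2.50) higher and Ifi27l2a at 0.59 (0.52 to 0.66) and Ly6a at 0.61 (0.52 to 0.71) lower. Without called doublets these counts were 10 and 0. The ratios of Ifi27l2a and Ly6a were then both 0.70 (0.62 to 0.78 and 0.60 to 0.82), just inside the limit and still below 1. As a mean over cells 2 were higher and 1 lower, and after thinning 4 and 1.

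Genes outside the interferon list were read along its ranges in the members without called doublets, in plain CPM. The MHC class I list, whose genes also respond to interferon, summed to 3931 CPM in the 29 cells with at most 3 interferon UMIs, 5430 CPM in the 41 cells between and 6192 CPM in the 78 cells with at least 10. B2m, the light chain of MHC class I, stood at 829, 1291 and 1202 CPM. The naive list showed no such order, at 10887, 8182 and 10695 CPM. Median depth was alike, at 2216, 2236 and 2002.5 UMIs.

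**Figure D4:**
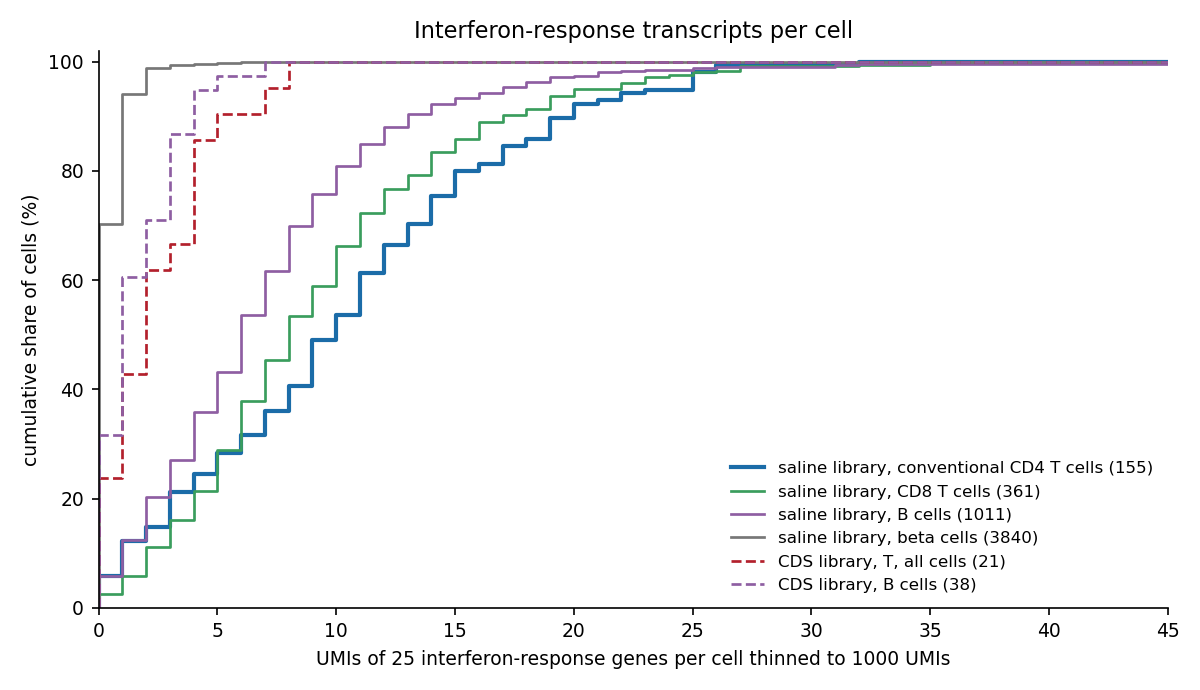
Cumulative share of cells (vertical axis, %) by the number of UMIs of 25 interferon-response genes in a cell thinned to 1000 UMIs (horizontal axis), for classes of the saline library (solid) and the CDS library (dashed), with the number of cells in parentheses. The median is 10 UMIs in saline CD4 T cells and 2 UMIs in the 21 T cells of the CDS library.

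The CDS library held too few members for a comparison of levels. Its only member had 3247 UMIs and 1644 genes, with 1 Cd4 UMI, 5 of Tcf7, 3 of Lef1, 4 of Icos and 1 of Il7r. It held 13 UMIs of the interferon list, 5 from Ifi27l2a, 4 from Slfn2, 2 from Ly6a and 1 each from Bst2 and Slfn1, and none of Isg15, Ifit1 or Ifit3. Thinned to 1000 UMIs it gave 7, which lies inside the range of the saline members. All 21 T cells of the CDS library gave 0 to 8 UMIs of the list, with a median of 2, and 14 of them had at most 3. The 1515 saline T cells had a median of 9 and reached 41. In plain CPM the list stood at 8565 in saline members, 7164 in all saline T cells and 2203 (1965 to 2461) in CDS T cells. That last sum rests on few cells, since the 5 deepest held 63.1% of the UMIs of CDS T cells. Without called doublets 19 CDS T cells were left, again with a median of 2. Isg15, Ifit1 and Ifit3 were seen in 54.6%, 45.5% and 60.1% of saline T cells and in none of 21 CDS T cells, which allows a UMI in up to 14.3% of them (3 counts). Ly6a and Slfn2 were seen in 57.1% and 66.7% of CDS T cells, against 59.9% and 67.5% of saline T cells. In plain CPM Ly6a stood at 572 in CDS and 508 in saline T cells, and Slfn2 at 311 and 430. For the whole list, B cells differed in the same direction as T cells, at 6564 in saline against 1543 CPM in CDS. Beta cells stood at 385 and 363 CPM. The makeup of the T cells differed as well, with medians per 1000 UMIs of 9 for the naive list and 2 for the memory list in saline T cells and 3 and 5 in CDS T cells, and its part in the interferon difference was not tested. With 1 library per group, treatment and library cannot be told apart.

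Clustering of the 155 members without the gate genes gave 3 groups of 100, 48 and 7 cells at a Leiden resolution of 0.5. The cluster of 100 was led by genes that included the interferon targets Usp18, Isg15, Irf7 and Gbp7, with Lef1 at 1302 CPM and the interferon list at 12202 CPM. In the cluster of 48 the leading genes included Tbc1d4, Ctla2a and Dapp1, with Lef1 at 1060 CPM and the interferon list at 5509 CPM. The cluster of 7 consisted of the 7 called doublets, with a median of 12496 UMIs, Lef1 at 209 CPM and Prkd1, Wnk3 and Ncam1 among its leading genes. These genes made the clusters and are given as a description. At a resolution of 0.3 there were 2 clusters, 1 of 148 cells and 1 of the 7 called doublets. The split into 100 and 48 cells was absent there. At a resolution of 1.0 there were 7 clusters, one of them led by genes that included Pdcd1, Tbc1d4, Maf, Cd44 and Ikzf2, genes of activated and regulatory T cells that the gate on Ctla4, Tnfrsf4 and Foxp3 does not read.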

How the data were processed

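The authors deposited raw UMI counts per gene and barcode, without normalization, for 1 saline and 1 CDS library. Per the submitters' processing notes the build was mm10 and the tools were Cell Ranger 7.1, Seurat 4 and edgeR, and both the v3.1 and the v2 chemistry appear in the labels' protocols. Filtering kept 11591 of 12453 and 6415 of 7268 barcodes. The cells and the gene lists were chosen with earlier results of these data known.

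UMIs were summed per class in the saline library and scaled to CPM with TMM factors (edgeR 4.0.16). Ratios carry exact conditional 95% intervals of a pair of Poisson counts, levels exact Poisson intervals and shares Clopper-Pearson intervals. Genes at 0 were given a limit of 3 counts. Doublets were called per library with Scrublet in Scanpy 1.11.5 at 0.8% per 1000 barcodes. Thinning drew 1000 UMIs per cell. Clusters used 1000 variable genes, 15 components, 15 neighbours and leidenalg 0.10.2. Other tools were Python 3.11.15, SciPy 1.17.1, NumPy 2.4.6, pandas 2.3.3 and R 4.3.3. The ratio code was tested on simulated data.

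Named genes were the gate and label genes, up to 4 members per list with the highest CPM, the adrenergic receptors, the 10 highest and 10 lowest ratios per comparison at 50 CPM in a class and 100 UMIs over both, and subset genes seen in at least 5% of cells. Ribosomal, mitochondrially encoded, immunoglobulin, hormone, acinar and haemoglobin genes were left out of the ratios named. Other genes were named after their values were seen, and some genes of the lists and rules are not reported here. Alternatives covered filters, gates, doublets, scaling, thinning and expression limits.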

Additional observations from a re-analysis of the deposited data

How the results depend on the processing

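The saline share of 1.34% became 0.958% with the stricter filter, 0.224% with at least 2 Cd4 UMIs, 1.10% with at least 4 T cell receptor UMIs, 0.915% with insulin under 5% of UMIs, 1.07% with the activation gate at 0 and 0.569% with gates applied after thinning. The CDS share became 0% with at least 2 Cd4 UMIs. After thinning, Cd3e was seen in 29.7%, Lef1 in 56.1%, Tcf7 in 49.7% and Il7r in 53.5% of members. Resolution 0.3 gave 2 clusters and resolution 1.0 gave 7.

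Against CD8 T cells, 51 genes were higher and 129 lower after thinning, 275 higher at a limit of 20 UMIs, 20 higher and 84 lower at 200 UMIs, and 94 higher with at least 2 Cd4 UMIs. Against cells past the activation gate, 248 were higher as a mean over cells, 124 higher and 49 lower after thinning, 635 and 855 at 20 UMIs, 70 and 90 at 200 UMIs, 108 and 162 with at least 2 Cd4 UMIs, and 361 lower with insulin under 5%. Fewer cells, UMIs or genes were tested in the thinned, 200 UMI and 2 Cd4 UMI settings, and the cause of the other moves was not tested.

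Log2 ratios reversed in 10 of 1671 repeats. Without called doublets, Pf4 became 2.37 and Apoe 0.70 against CD8 T cells, and Apoe 0.76 against cells past the gate. With at least 2 Cd4 UMIs, which left 26 members, Sgcz became −0.41 and Il18r1 0.37 against CD8 T cells, and Ttr −0.29, Robo2 −1.46, Dlg2 −0.46, Apoe 1.54 and Ikzf2 0.25 against cells past the gate. No paired analysis was possible because each group had 1 library. Depth limits what can be said of genes under 6.66 CPM in members.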

Other observations

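T cells without Cd4 or Cd8 UMIs, 641 in the saline library, belong to neither class compared above. They too had at most 1 UMI of Ctla4, Tnfrsf4 and Foxp3 together. Lef1 stood at 667 CPM there and was seen in 74.4% of cells, Tcf7 at 338 CPM in 58.7% and Il7r at 779 CPM in 74.7%. Klrd1 was seen in 12.8%, between the 2.58% of CD4 and the 41.6% of CD8 T cells, and Ly6c1 and Ly6c2 in 14.4% and 10.5%. Trdc, the constant gene of the delta chain, had 86 UMIs in 4.37% of these cells and none in the 155 CD4 T cells. Isg15 was seen in 51.6% and Ifit3 in 58.5%.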
